A study of Mus musculus with 8 samples.

Results

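EPS8 is an actin regulatory protein that caps the fast-growing end of actin filaments, bundles filaments, and, in a complex with the adaptor ABI1 and the exchange factor SOS1, activates the small GTPase RAC. This report describes Eps8 together with 9 genes that act beside it, which are Eps8l2 (an EPS8 relative), Abi1, Sos1, Fscn1 (fascin, a filament bundler), Capzb (the beta subunit of capping protein), the cofilins Cfl1 and Cfl2, and the thymosins Tmsb4x and Tmsb10. The 10 genes were listed by name among 55487 rows of the count table, and 9 of them passed the filter on low counts that left 12060 genes. They were listed with the difference between treated and control libraries already known, that is, they were selected on the fold change and call of Eps8 in that contrast, so their values there are a description, without a test.

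The 8 libraries came from muscle stem cells (MuSCs) of aged (label "Old") wild-type male C57BL/6JRj mice. Cells negative for CD31, CD11B, CD45, and SCA1 and positive for CD34 and integrin α7 were sorted, 2 mice were combined in each of 4 pools, and cells of every pool were cultured in growth medium for 72 hours under both conditions. The control was 1% DMSO (vehicle, n = 4), and the treatment was nicotinamide plus pyridoxine (NAM/PN, n = 4), vitamin B3 and vitamin B6 forms whose combination is labeled as 1 mM. Whether the treated wells also received DMSO is not given in the sources used here. The cells carried no transgene, and cells grown for this time had left the niche in which they were sorted, so the libraries measure cultured progeny of MuSCs. RNA was read from transcript 3′ ends, and total counts ranged from 6472484 to 10163101 per library. Levels are given as CPM, the count of a gene scaled by its library's total after TMM normalization in edgeR. In vehicle replicate 3, the ribosomal RNA gene CT010467.1 took 18.7% of the counts, against 5.22% to 11.6% in the other libraries.

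Actin filaments grow mainly at their barbed ends, where capping protein and EPS8 stop elongation. Cofilins sever and shorten older filaments, thymosins hold actin monomers in reserve, and fascin and EPS8 tie filaments into parallel bundles such as those of filopodia. In myogenic cells these proteins take part in migration, in cell shape changes before fusion, and in the assembly of thin filaments.

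Several of the genes have close relatives, and the sequences were compared to see whether counts of relatives could be mixed up. The thymosin pair is shown because both are short and similar. Their coding sequences, from the GENCODE annotation of GRCm38, are written 5′ to 3′ with the bases that differ at the same position in capitals.
Tmsb4x: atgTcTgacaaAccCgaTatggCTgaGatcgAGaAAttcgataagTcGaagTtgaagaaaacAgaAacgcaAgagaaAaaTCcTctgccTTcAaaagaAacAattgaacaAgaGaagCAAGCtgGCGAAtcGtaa
Tmsb10: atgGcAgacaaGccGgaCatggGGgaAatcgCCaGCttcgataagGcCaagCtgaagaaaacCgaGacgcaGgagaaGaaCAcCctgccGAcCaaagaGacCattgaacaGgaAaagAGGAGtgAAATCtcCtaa
Both are 135 bases long, and 95 positions (70.4%) are identical. The longest run shared by the whole transcripts was 10 bases. It was 8 bases when only the last 300 bases, where 3′ reads start, were compared. For Cfl1 and Cfl2 the longest run shared in the last 300 bases was also 8 bases, and for Eps8 and Eps8l2 it was 9 bases. Over whole transcripts the longest shared runs were 11 bases for the cofilins and 20 bases for Eps8 and Eps8l2.

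Eps8 was higher in NAM/PN than in vehicle, by 4.93 times in the mean. Eps8 (ENSMUSG00000015766, GRCm38 chr6:137477245-137654876, minus strand) had 14.4, 2.36, 9.02, and 8.05 CPM in vehicle replicates 1 to 4. It had 61.8, 51.1, 28.2, and 25.9 CPM in NAM/PN replicates 1 to 4. Every NAM/PN library lay above every vehicle library, and pool 2 held the lowest vehicle value. The means were 8.47 ± 4.95 CPM in vehicle and 41.7 ± 17.6 CPM in NAM/PN (SD, n = 4 each). Underlying counts were 122, 19, 73, and 74 in vehicle and 502, 367, 185, and 277 in NAM/PN, so the second vehicle value rests on few reads. In these bulk libraries, more cells with Eps8 RNA and more Eps8 RNA per cell cannot be told apart.

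The fitted log2 fold change of Eps8, NAM/PN minus vehicle, was 2.30 with a standard error of 0.47 (95% interval 1.32 to 3.28). Within pools, the difference in log2 CPM was 2.08, 4.30, 1.62, and 1.66 for pools 1 to 4, so the level was higher in NAM/PN in 4 of 4 pools. Eps8 was the 1 member past the threshold of 0.05 for adjusted p (edgeR, quasi-likelihood, Benjamini-Hochberg), and so is called higher. Over the 12060 genes, 154 (1.28%) were called, of which 34 (0.282%) were higher and 120 (0.995%) lower. Eps8 was also the 1 member whose groups did not overlap, a property of 870 genes (7.21%). Because the contrast chose the gene, nothing is read from these counts.

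**Figure D1:**
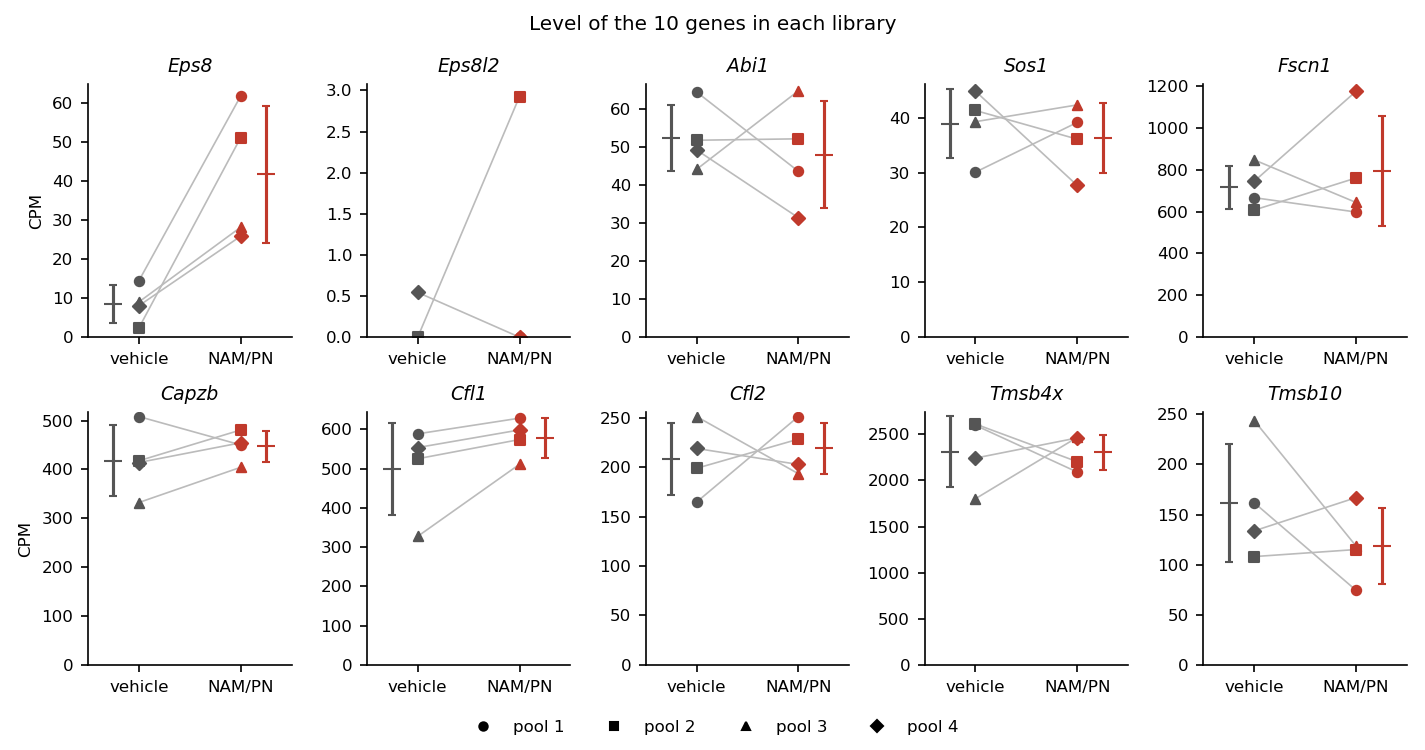
Level of each of the 10 genes in CPM (linear axes from 0) in the 4 vehicle (gray) and 4 NAM/PN (red) libraries, with lines joining libraries of the same pool and bars giving mean ± SD for the genes that passed the low-count filter. The Eps8 panel shows 4 NAM/PN libraries at 25.9 to 61.8 CPM above 4 vehicle libraries at 2.36 to 14.4 CPM, and in the other panels the groups overlap.

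The Eps8 call was lost in 6 fits that left out 1 library or 1 pool, in which 42 to 137 genes were called in place of 154. Leaving out vehicle replicate 4 alone gave a log2 fold change of 2.27, leaving out NAM/PN replicate 1 gave 2.05, and leaving out NAM/PN replicate 2 gave 2.19, and in each case the adjusted p was no longer under 0.05. The same was true without pool 1 (2.43), pool 2 (1.88), or pool 4 (2.45). The sign was positive under all 23 alternatives, with values from 1.65 to 2.68, and the call was kept in 15.

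The 2 NAM/PN libraries with the most Eps8, replicates 1 and 2, also differed from the others in a marker of another cell type. The summed level of 8 fibro-adipogenic markers was 565 and 1163 CPM in these libraries, 97.6 and 92.5 CPM in NAM/PN replicates 3 and 4, and 269 to 346 CPM in vehicle. That excess was the collagen gene Col1a1, at 486 and 1032 CPM, against at most 41.3 CPM in the other 6 libraries. In the same list 2 genes were called lower, Gsn, described below, and the collagen gene Col3a1. Col3a1 was at 149 to 166 CPM in vehicle and at 53.7 to 84.4 CPM in NAM/PN, with 66.6 and 84.4 CPM in replicates 1 and 2 (adjusted p = 0.00255, lower in 4 of 4 pools). The fibro-adipogenic markers Pdgfra and Lum had 0 counts in every library. The part of the Col1a1 excess in the Eps8 result was not tested. Without NAM/PN replicates 1 and 2, a comparison chosen after seeing the data, the Eps8 log2 fold change was 1.67 and was not called. These were the NAM/PN libraries with the most Eps8, so a smaller value was fixed in advance, and only 2 NAM/PN libraries remained. Nothing is read from that value about Col1a1 or other cell types. Without both libraries of pools 1 and 2 the Eps8 log2 fold change was 1.65, also not called. In that fit, with 2 libraries per group, no gene at all was called, so the lost call carries no information on Eps8.

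**Figure D2:**
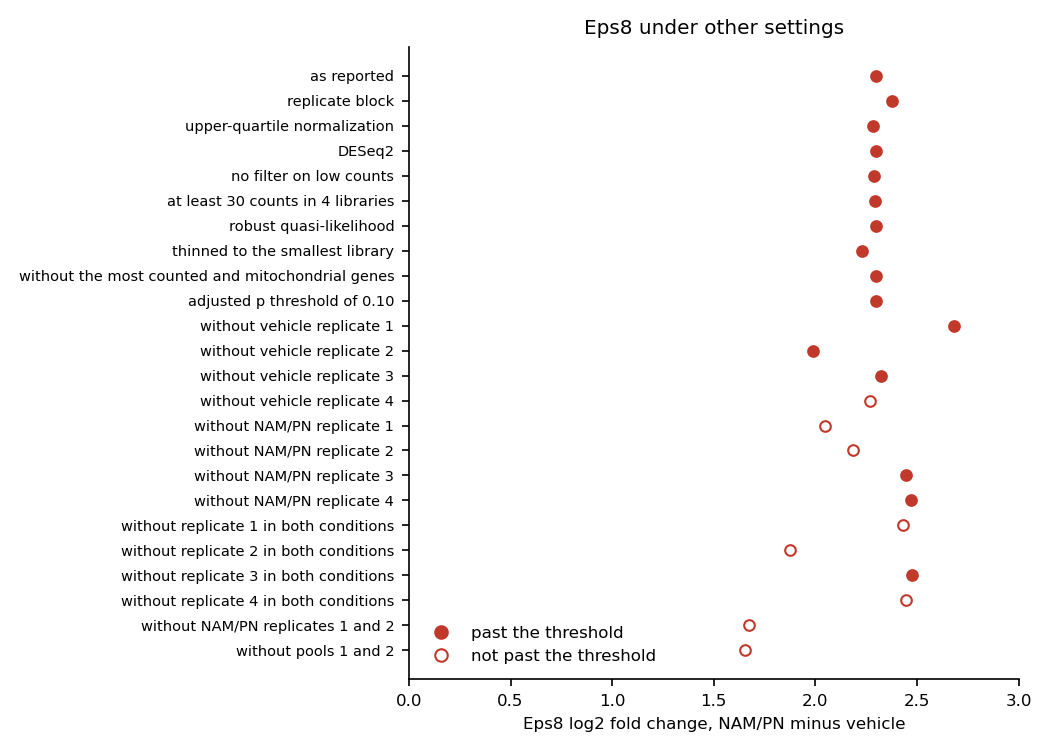
Fitted log2 fold change of Eps8, NAM/PN minus vehicle, as reported and under each of the 23 alternatives, with filled points where the adjusted p was past the threshold of that setting and open points where it was not. All points lie between 1.65 and 2.68, and the open points are settings that leave out libraries.

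Pax7, which marks MuSCs, was at 97.3 CPM or more in every library, whereas the quiescence marker Calcr had counts in 1 vehicle library and 0 in the others. The 10 markers of MuSCs and myoblasts summed to 3029 to 3445 CPM in vehicle and to 2399 to 3032 CPM in NAM/PN. The 18 differentiated muscle markers summed to 2159 to 4268 CPM in vehicle and 570 to 1351 CPM in NAM/PN, and 12 of them were called lower. Endothelial markers summed to at most 29.5 CPM in any library, with Flt1, Emcn, Cldn5, and Tie1 at 0, 7 of 8 immune markers had 0 counts throughout, and Schwann cell markers summed to at most 18.4 CPM. The 7 mural cell markers summed to 285 to 608 CPM in vehicle and 95.9 to 156 CPM in NAM/PN, without overlap. In vehicle, most of that sum was the smooth muscle actin gene Acta2, at 244 to 534 CPM, against 46.9 to 122 CPM in NAM/PN. Acta2 was called lower in edgeR (log2 value -2.38, adjusted p = 0.000147). Rgs5, Pdgfrb, and Kcnj8 had at most 3.35 CPM, and Myh11 had 0 counts in every library. The other mural markers were present in every library and not called, Notch3 at 18.9 to 53.5 CPM and Cspg4 at 10.7 to 45.6 CPM, each lower in NAM/PN in 3 of 4 pools. The differentiated muscle and mural markers moved with the condition in the same libraries as Eps8, and their part in the Eps8 result was not tested.

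The EPS8 relatives had few counts. Eps8l2 (ENSMUSG00000025504, chr7:141338880-141363020, plus strand), which also binds actin filaments, had 0 counts in vehicle replicates 1 to 3 and 5 counts (0.544 CPM) in replicate 4. In NAM/PN it had 21 counts (2.93 CPM) in replicate 2 and 0 counts in the other 3 libraries. A count of 0 allows up to 3 counts, or 0.280 to 0.457 CPM depending on the library, and covers counting error only. The gene did not pass the filter, so no fold change is given. Eps8 therefore held 93.7% to 100% of the reads assigned to the Eps8 and Eps8l2 pair in vehicle and 94.6% to 100% in NAM/PN. Eps8l1 and Eps8l3, further relatives, also failed the filter, at up to 2.96 and 4.94 CPM in any library.

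The partners of EPS8 in RAC activation overlapped between conditions. Abi1 (ENSMUSG00000058835, chr2:22940073-23040241), the adaptor that joins EPS8 to SOS1, had 64.4, 51.7, 44.1, and 49.2 CPM in vehicle replicates 1 to 4. In NAM/PN its values were 43.6, 52.1, 64.7, and 31.4 CPM. The highest values of the groups were almost equal and came from different pools, and the groups overlapped. Its fitted log2 fold change was -0.13 with a standard error of 0.26 (95% interval -0.68 to 0.42). Abi1 overlaps Pdss1 on the opposite strand, which had up to 263 counts, and the strand used for counting is not given in the sources used here, so their reads may be mixed.

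Sos1 (ENSMUSG00000024241, chr17:80393751-80480453) encodes the exchange factor that loads RAS and, with EPS8 and ABI1, RAC with GTP. Its levels were 30.1, 41.3, 39.3, and 44.8 CPM in vehicle and 39.1, 36.1, 42.3, and 27.6 CPM in NAM/PN. The groups overlapped, with 2 pools higher and 2 lower. Its fitted log2 fold change was -0.10 with a standard error of 0.27 (95% interval -0.67 to 0.47).

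Fascin and capping protein, the bundling and capping members beside EPS8, overlapped between conditions. Fscn1 (ENSMUSG00000029581, chr5:142960343-142973185) had 667, 608, 847, and 746 CPM in vehicle and 598, 761, 644, and 1175 CPM in NAM/PN. NAM/PN replicate 4 stood above all other libraries, while NAM/PN replicate 1 was the lowest of the 8. The means were 717 ± 104 and 794 ± 263 CPM (SD, n = 4 each), and the log2 fold change was 0.15 with a standard error of 0.19 (95% interval -0.26 to 0.56). Under the alternatives this value moved between -0.10 and 0.34.

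Capzb (ENSMUSG00000028745, chr4:139192899-139291818) had 508, 418, 332, and 414 CPM in vehicle and 450.3, 481, 404, and 455 CPM in NAM/PN. Vehicle replicate 1 was the highest and vehicle replicate 3 the lowest of the 8 libraries, so the NAM/PN values lay inside the vehicle range. For Capzb the log2 fold change was 0.098 with a standard error of 0.16 (95% interval -0.24 to 0.44). Capping protein works as a dimer of an alpha and a beta subunit, and of the alpha subunits, named here for that role, Capza2 had 139 ± 24.1 CPM in vehicle and 110.1 ± 20.3 CPM in NAM/PN. Its log2 fold change was -0.34 (standard error 0.20, adjusted p = 0.704), with lower values in NAM/PN in 4 of 4 pools. Capza1 had at most 6.44 CPM in any library.

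Cfl1 (ENSMUSG00000056201, chr19:5490455-5495201), the cofilin of most tissues, had 589, 525, 328, and 554 CPM in vehicle and 629, 574, 511, and 599 CPM in NAM/PN. It was higher in NAM/PN in 4 of 4 pools, but the groups overlapped, and pool 3 had the largest difference because vehicle replicate 3 was low. For Cfl1 the log2 fold change was 0.21 with a standard error of 0.18 (95% interval -0.16 to 0.59). Cfl1 overlaps Snx32 on the opposite strand, which had at most 29 counts.

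Cfl2 (ENSMUSG00000062929, chr12:54858809-54862877), the cofilin of mature skeletal muscle, had 165, 199, 251, and 219 CPM in vehicle and 251, 228, 193, and 203 CPM in NAM/PN. The groups overlapped almost completely, and the log2 fold change was 0.071 with a standard error of 0.18 (95% interval -0.30 to 0.44). Cfl2 took 30.3% ± 9.22 of the reads of the cofilin pair in vehicle and 27.4% ± 1.51 in NAM/PN (SD, n = 4 each). The wide vehicle spread came from replicate 3, where the share was 43.4% (95% Wilson interval 42.0% to 44.8%), against 21.9% to 28.3% in the other 3 vehicle libraries. That replicate is the library with the high share of the ribosomal RNA gene, and the part of that share in the cofilin values was not tested.

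The thymosins gave a similar picture. Tmsb4x (ENSMUSG00000049775, chrX:167207093-167209315) had 2598, 2612, 1802, and 2243 CPM in vehicle and 2091, 2204, 2467, and 2462 CPM in NAM/PN. The NAM/PN values lay inside the vehicle range, and the log2 fold change was -0.0048 with a standard error of 0.14 (95% interval -0.31 to 0.30), the narrowest interval of the 9 genes. Without pools 1 and 2 the fitted value was 0.28 and without any call, since pools 1 and 2 were lower in NAM/PN and pools 3 and 4 higher.

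Tmsb10 (ENSMUSG00000079523, chr6:72957347-72958748) had 162, 108, 244, and 134 CPM in vehicle and 74.4, 115, 118, and 167 CPM in NAM/PN. The groups overlapped, with 2 pools lower and 2 higher. Tmsb10 had a fitted log2 fold change of -0.45 with a standard error of 0.26 (95% interval -0.98 to 0.091), and it was negative under all 23 alternatives, between -0.74 and -0.18. Tmsb10 took 6.84% ± 3.48 of the thymosin pair's reads in vehicle and 4.83% ± 1.20 in NAM/PN (SD, n = 4 each). Vehicle replicate 3 was again the highest, at 11.9% (95% Wilson interval 11.4% to 12.4%), where the ribosomal RNA gene also took its highest share. The part of that share in the thymosin values was not tested.

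**Figure D3:**
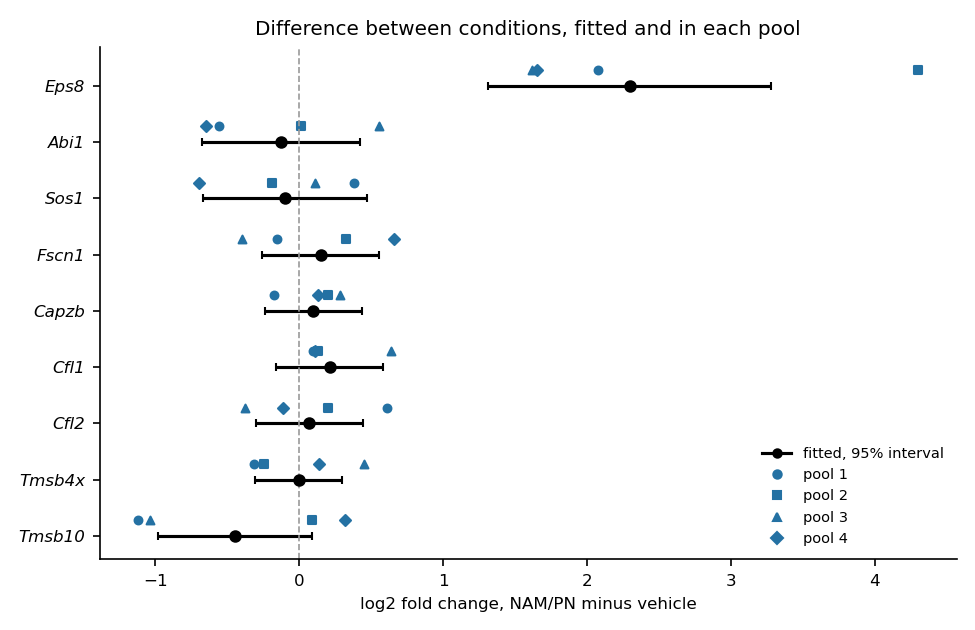
Fitted log2 fold change, NAM/PN minus vehicle, with its 95% interval (black) for the 9 genes that passed the filter, and the difference in log2 CPM within each pool (blue). Eps8 at 2.30 has all pools above 0, whereas the intervals of the other 8 genes include 0.

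Over the 9 members tested, 5 fold changes were positive and 4 negative, and the median was 0.071 on the log2 scale beside -0.0022 over all tested genes. Apart from Eps8, the fitted values ran from -0.45 (Tmsb10) to 0.21 (Cfl1). Of the 9, Eps8 varied most between replicates. Its coefficient of variation was 58.5% in vehicle and 42.1% in NAM/PN, while those of the other 8 lay between 7.09% (Capzb in NAM/PN) and 36.3% (Tmsb10 in vehicle).

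To place the members among the genes they work with, 123 other actin regulators were listed by role, and 97 of them passed the filter. Of these, 2 were called, both lower, beside the 1.28% called among all genes, and 39 had positive and 58 negative fold changes (median -0.089 on the log2 scale). At an unadjusted p under 0.05 there were 14, beside 1119 (9.28%) of all genes. The groups did not overlap for 8 of the 97 genes, beside the 7.21% given above for either direction. All 8 were lower in NAM/PN. The share over all genes for that direction alone is not given, so nothing is read from the direction. Among 13 genes of the EPS8 family and RAC activation, 10 were tested and 0 were called or had an unadjusted p under 0.05 in edgeR, and 0 were called by DESeq2. The smallest p of that list belonged to Usp6nl, a RAB5 GTPase-activating protein that binds EPS8, at 20.2 ± 5.61 CPM in vehicle and 33.4 ± 12.9 CPM in NAM/PN. It was higher in 4 of 4 pools, by 0.73 on the log2 scale (standard error 0.36, adjusted p = 0.576). Rac1 itself, named for its role, had 304 ± 53.1 and 306 ± 35.8 CPM, and a fitted log2 difference of 0.0065 (standard error 0.17).

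The 2 regulators called lower in edgeR were a capping and a bundling protein. Gsn (ENSMUSG00000026879, chr2:35256380-35307892) encodes gelsolin, which severs filaments and caps their barbed ends. It had 121, 167, 134, and 114 CPM in vehicle and 5.42, 34.4, 21.0, and 27.1 CPM in NAM/PN, with every NAM/PN library below every vehicle library. Gsn fell in 4 of 4 pools, by a fitted log2 value of -2.61 (standard error 0.37, adjusted p = 0.000578). Gsn also stands in the fibro-adipogenic marker list. Palld (ENSMUSG00000058056, chr8:61511433-61902690) encodes palladin, which crosslinks filaments and binds alpha-actinin. It had 178, 243, 254, and 244 CPM in vehicle and 64.7, 133, 115, and 89.8 CPM in NAM/PN, again without overlap. Palld fell in 4 of 4 pools, by a fitted log2 value of -1.19 (standard error 0.22, adjusted p = 0.00549). Its call was lost without pool 2 (-1.32, adjusted p = 0.0503) and without pool 4 (-1.11, adjusted p = 0.0675). Both Gsn and Palld were also not called without pools 1 and 2, a fit in which no gene was called. The differentiated muscle and mural marker sums were lower in the same libraries, and their part in the Gsn and Palld results was not tested.

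By role, the capping list had 20 tested genes with a median of -0.25 on the log2 scale Gsn as its 1 call, and 3 genes at an unadjusted p under 0.05. The bundling list had 14 tested genes with a median of -0.39 and Palld as its 1 call in edgeR, beside which DESeq2 also called Cald1 (caldesmon, lower). In the bundling list 7 genes had an unadjusted p under 0.05, all of them counted in the 14 given above. The branching list, which holds the WAVE, N-WASP, and ARP2/3 subunits, had 19 tested genes with a median of 0.013 and 0 calls in edgeR, with 2 at an unadjusted p under 0.05. Its smallest p belonged to Arpc1b, an ARP2/3 subunit, at 862 ± 166 CPM in vehicle and 1235 ± 179 CPM in NAM/PN. It was higher by 0.52 on the log2 scale (standard error 0.17, adjusted p = 0.180) and was called by DESeq2, the 1 call of that tool in this list (adjusted p = 0.0409).

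The lists of severing and cofilin regulation (16 tested, median -0.046) and of monomer binding and elongation (18 tested, median -0.029) had 0 calls in edgeR and in DESeq2, with 1 gene each at an unadjusted p under 0.05. These were Cap2, which recycles actin monomers (log2 value -0.61, standard error 0.27, adjusted p = 0.480), and Cobl, an actin nucleator (log2 value -1.43, standard error 0.47, adjusted p = 0.209). Dstn, the third member of the cofilin family and named for that role, had 133 ± 23.7 CPM in vehicle and 125 ± 62.0 CPM in NAM/PN.

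**Figure D4:**
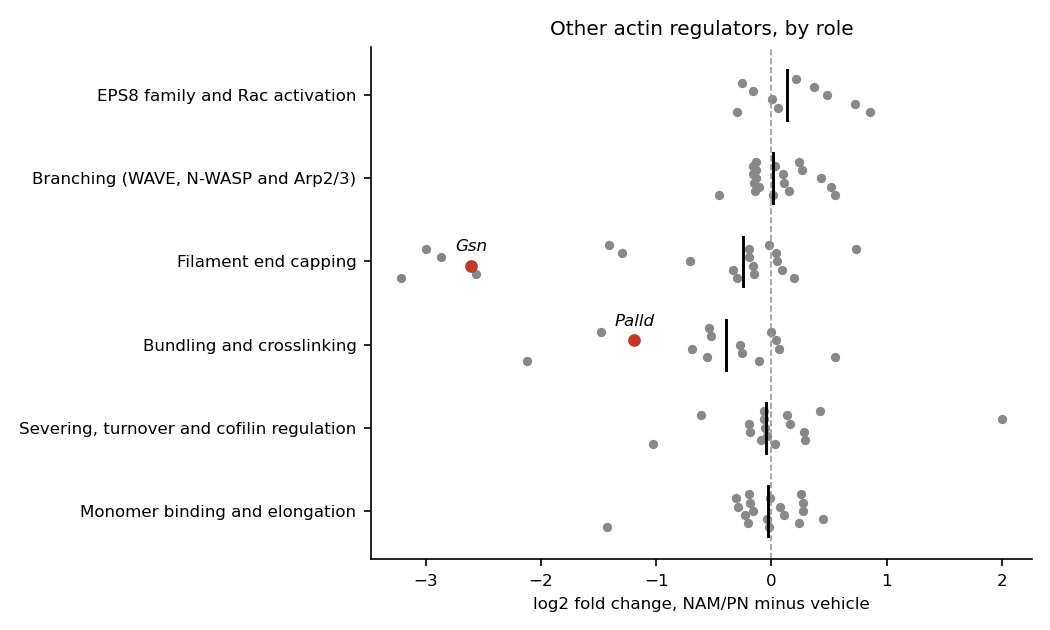
Fitted log2 fold change, NAM/PN minus vehicle, of the 97 tested actin regulators that are not among the 10 genes, in 6 lists by role. Red points mark the 2 genes past the adjusted p threshold, Gsn at -2.61 and Palld at -1.19, and black bars mark the list medians, which lie between -0.39 and 0.14.

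The pattern of Eps8 over the 8 libraries was compared with that of 9211 genes whose log2 CPM averaged 3 or more. The genes with the highest Pearson r were Seh1l (0.97), Ndc1 (0.97), Smim7 (0.95), Frmd4a (0.94), and Rab5c (0.94), over 8 libraries that share the 2 conditions and the 4 pools. After the mean of each condition was removed, r was 0.92, 0.92, 0.96, 0.77, and 0.76 for the same genes. These values are descriptions and were not tested. Of the 5 genes, Frmd4a was called higher in edgeR by 0.89 on the log2 scale (standard error 0.21, adjusted p = 0.0422), a call kept in 9 of 23 alternatives. The 5 genes were chosen for likeness to Eps8 across both conditions, so nothing is read from this call or from the r values. Among the members, r with Eps8 ran from -0.34 (Tmsb10) to 0.41 (Capzb).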

How the data were processed

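The authors sequenced QuantSeq 3′ libraries and deposited raw read counts per gene (HTSeq 2.16.2 and GRCm38, per the submitters' processing notes). The annotation release, strand setting, and treatment of multi-mapping reads are not given in the sources used here. Rows were named through GENCODE (55141 of 55487 IDs). Counts were analyzed in R 4.3.3 with edgeR 4.0.16 by filterByExpr (minimum count 10, minimum total 15), TMM normalization, and the quasi-likelihood test (glmQLFit, glmQLFTest) on all 8 libraries, without a block. Benjamini-Hochberg adjustment covered all 12060 tested genes, with a threshold of 0.05. Log2 CPM used a prior count of 2. The standard error is the fold change divided by the square root of F. DESeq2 1.42.0 was an alternative, and figures used matplotlib.

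Depth was 6472484 to 10163101 counts per library, so 3 counts equal 0.280 to 0.457 CPM on the normalized totals. The most alike libraries of a group differed by a chi-square of 23.6 per degree of freedom, beyond sampling noise. Libraries of a pool come from the same mice. The correlations of their deviations from the group means were -0.033 to 0.031. In data simulated from these libraries (11344 genes tested), the test recovered 56 of 100 genes changed 4-fold and 31 of 100 changed 2-fold. It also called 10 unchanged genes there, and called 0 genes where nothing was changed. The simulated counts were drawn independently for each gene and library, without differences shared by many genes of a library or pool.

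The members and the lists were chosen with earlier results of these data known. Named are the members, called pathway genes, the gene with the smallest p of each list, the 5 genes most like Eps8, and marker genes. Capza1, Capza2, Rac1, Dstn, Eps8l1, and Eps8l3 were added for their role after their values were seen.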

Additional observations from a re-analysis of the deposited data

Results flagged for a closer look

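In groups of 4 libraries, 3 of 60 groups of values held a library far from the others by Dixon's test at its 95% critical value, which chance passes in about 1 of 20 groups. For Eps8l2 the ratio is at its maximum by construction, since the other 3 libraries had 0 counts. Eps8l2 in vehicle was at 0.544 CPM in replicate 4 and at 0 in the other 3 libraries. Eps8l2 in NAM/PN was at 2.93 CPM in replicate 2 and at 0 in the other 3. Palld in vehicle was at 178 CPM in replicate 1 and at 243 to 254 CPM in the others, a gap of 0.852 of the range.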

How the results depend on the processing

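As reported, 154 genes and 2 of the other actin regulators were called. DESeq2 called 289 and 4, omitting the filter on low counts called 366 and 4, and a threshold of 0.10 called 244 and 4. Leaving out 1 library or 1 pool gave 42 to 177 genes and 1 to 3 actin regulators, with the lowest counts without pool 2 (42 and 1). Other low counts were 80 without vehicle replicate 2, 87 without vehicle replicate 4, 92 without NAM/PN replicate 1, 65 without pool 1, and 94 without pool 4. Palld lost its call without pool 2 (-1.32) and without pool 4 (-1.11), and Lmod3 was the other call without pool 4. Alternatives chosen after seeing the data left out NAM/PN replicates 1 and 2 (76 and 3) or both libraries of pools 1 and 2. In the latter edgeR called 0 and 0, with 710 genes and 6 regulators at an unadjusted p under 0.05. That fit, without pools 1 and 2, had 2 libraries per group, and Gsn (-2.37), Palld (-1.29), and Eps8 (1.65) were not called there. Cfl2 moved to -0.26 and Tmsb4x to 0.28. The cause of these changes was not tested.

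With the pool as a replicate block, 156 genes (130 of them shared with the 154) and 3 actin regulators (Gsn, Palld, and Lmod3, the last not called without it) were called. Eps8 was called at 2.38. Frmd4a was not (0.91, adjusted p = 0.0586), and it lost its call in 14 of 23 alternatives in all. No tested member changed its call under the block, nor did Gsn, Palld, Usp6nl, Arpc1b, Cap2, Cobl, Seh1l, Ndc1, Smim7, or Rab5c. Eps8, Gsn, Palld, and Frmd4a kept their direction in the 23 alternatives, which were not computed for the marker genes.

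Eps8 at 19 counts in vehicle replicate 2 and Eps8l2 at 0 to 21 counts are the members limited by depth.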
